A study of Rattus norvegicus with 9 samples.

Results

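The expression of 8 bone formation genes was followed through single cells of the rat tibial osteotomy site. The genes were chosen by symbol and were Bglap, Ibsp, Spp1, Alpl, Runx2, Sp7, Dmp1 and Phex. All 8 were found among the 41801 genes listed in the count files. Sprague-Dawley rats aged 6 to 8 weeks carried a 3-mm circular osteotomy of the proximal tibia and a 4-mm skin wound on the foot of the same leg, so both injuries were shared by every group. In the TO arm the osteotomy was left untreated, and in the TOE arm it received radial extracorporeal shockwave treatment (rESWT) on postoperative days 2 and 4. Groups were named by arm, day and hour of collection, counted from the session in TOE and with no session in TO. Each was 1 library. Analysed were TO 2d 0h (taken before any session), TO 2d 4h, TO 4d 4h and TO 4d 24h, and TOE 2d 4h, TOE 2d 24h, TOE 4d 4h and TOE 4d 24h. The remaining group, TO 2d 24h, is not analysed here. The design lists 9 rats for 9 samples and does not say which rats entered which library, so the libraries measure conditions without replicates of a condition.

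Bone is laid down by osteoblasts, which arise from mesenchymal progenitors. Runx2 is the transcription factor that commits cells to this lineage, and Sp7 (osterix) is a zinc-finger factor that acts downstream of it. Alpl encodes tissue-nonspecific alkaline phosphatase, which removes the mineralization inhibitor pyrophosphate. Ibsp (bone sialoprotein) and Spp1 (osteopontin) are acidic phosphoproteins of the mineralized matrix, and Spp1 is also made by macrophages. Bglap (osteocalcin) is the calcium-binding protein of mature osteoblasts. Dmp1 and Phex are made as osteoblasts become osteocytes, and both act in the control of phosphate. In the RefSeq annotation of the GRCr8 assembly, Spp1, Ibsp and Dmp1 lie near each other on chromosome 14, together with Mepe.

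The libraries held 95954800 to 144146202 unique molecular identifiers (UMIs, counts of captured transcripts) and 12451 to 17187 barcodes. After filters on genes, mitochondrial UMIs and doublets, 110488 of 116711 barcodes were kept. The level of a gene in a population was its number of UMIs per 1000000 UMIs of those cells (CPM), and intervals are exact Poisson intervals at 95% that cover counting error only. Cells were clustered with the 8 genes left out, so that their levels could be compared between clusters. Most cells were marrow cells, with 64331 B-lineage-like cells, while 1190 cells formed the mesenchymal-like class. All 12 mesenchymal markers were raised in that class. It held 55 to 464 cells per library, with the 464 cells in TOE 2d 24h, a library that stood apart from the others in this respect. Between 40 and 110 barcodes were shared by any pair of libraries, at most 0.783% of the smaller one.

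Within the mesenchymal-like class, 3 sub-clusters with 394 cells in all were named osteoblast-like. Sub-cluster 0 held 322 cells and raised 9 of the 12 osteoblast markers, none of which was one of the 8 genes. Its 10 leading genes began with the antibody genes Jchain and Igha and held the osteoblast markers Col22a1, Col11a2 and Ifitm5. Sub-cluster 5 held 40 cells, 36 of them from TOE 2d 24h, raised 3 of the 12 markers and was led by Csmd1, Npy and Phospho1. Its mean log2 fold over the 12 markers against the other mesenchymal-like cells, with extremes capped, was -0.16, so its name is weak. Sub-cluster 6 held 32 cells, raised 5 markers and was led by Dmp1, Mepe and Kcnj3, with Phex also among its 10 leading genes, although Dmp1 and Phex had not entered the clustering. Each of the 12 markers was higher in osteoblast-like than in B-lineage-like cells, between 112-fold for Omd and 622-fold for Col22a1. The same markers gave the sub-clusters their name, so these folds are a description and no check of it. The osteoblast-like share of all kept cells was 0.357% over the 8 libraries. It was 0.162% in TO 2d 4h, 0.131% in TO 4d 4h, 0.173% in TOE 2d 4h and 0.330% in TOE 4d 4h. Among the other libraries it was 0.367% in TO 2d 0h, 0.634% in TO 4d 24h, 0.844% in TOE 2d 24h and 0.201% in TOE 4d 24h. The 4 h libraries thus lay on the low side, but TOE 4d 4h was above TOE 4d 24h. Osteoblast-like cells carried a median of 29308 UMIs against 4323 in B-lineage-like cells. Another 3191 barcodes formed a low-UMI cluster led by Npy and Pla2g2a, which was left unnamed because its median was 832 UMIs.

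The 8 genes fell into groups by where their UMIs lay. The matrix gene Bglap was measured at 38757 CPM (38653 to 38862) in osteoblast-like cells and 96.4 CPM in B-lineage-like cells, a class that should lack it. These 394 cells held 80.8% of all Bglap UMIs, and between 68.4% and 93.4% within single libraries. For Ibsp the osteoblast-like level was 6966 CPM (6922 to 7011) against 8.87 CPM in B-lineage-like cells, and 66.3% of its UMIs lay there. Of the Ibsp UMIs, 26.2% came from other mesenchymal-like cells, against 4.30% for Bglap. The osteocyte-stage genes Dmp1 and Phex had 88.6% and 80.6% of their UMIs in osteoblast-like cells. Dmp1 was at 257 CPM (249 to 266) there and 0.301 CPM in B-lineage-like cells. Phex was at 270 CPM (262 to 279) and 0.990 CPM in the same populations. Sp7 reached 75.2 CPM (70.7 to 79.9) in osteoblast-like cells and 0.598 CPM in B-lineage-like cells, and osteoblast-like cells held 42.3% of its 2421 UMIs.

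**Figure D1:**
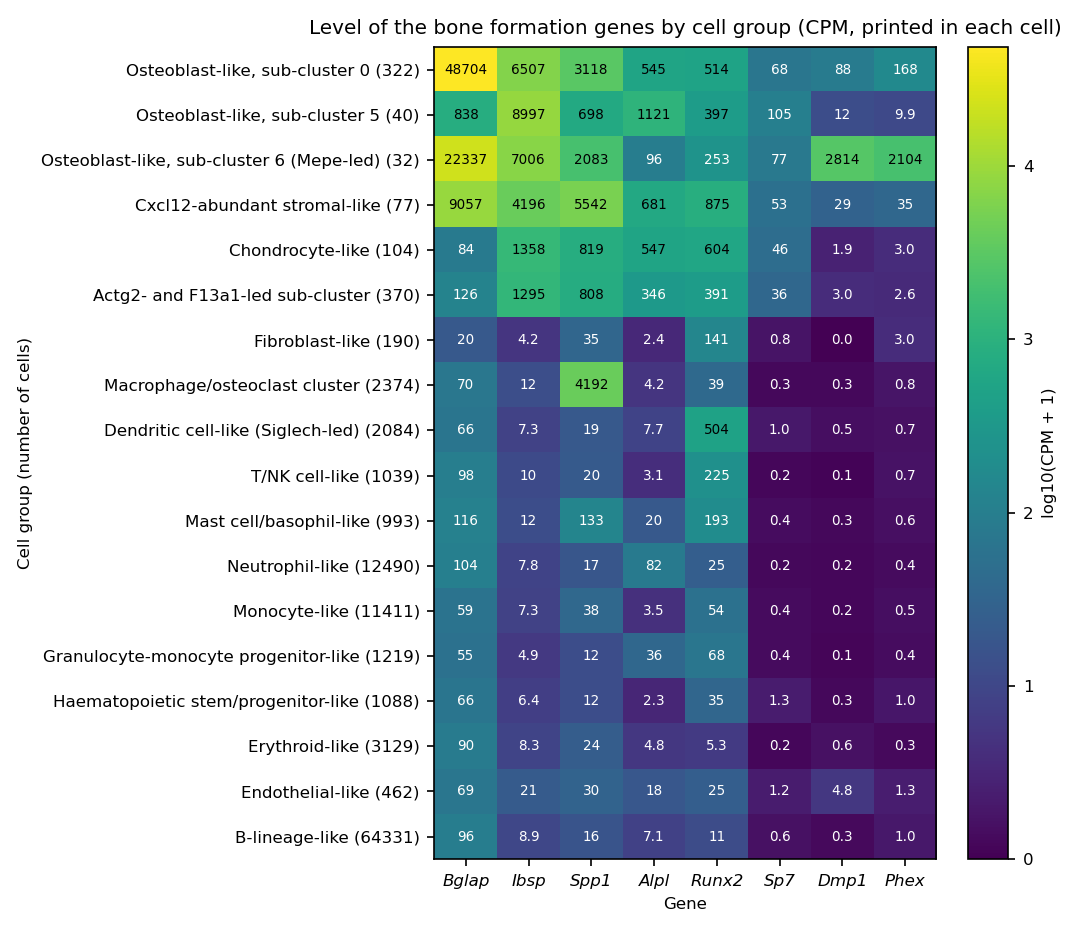
Heat map of the level of each gene (columns) in each cell group (rows, with the number of cells), over the 8 libraries summed. Colour gives log10(CPM + 1) and the printed number gives CPM. Bglap, Ibsp, Sp7, Dmp1 and Phex are bright in the mesenchymal-like sub-clusters at the top, while Spp1 is also at 4192 CPM in the macrophage/osteoclast cluster and Runx2 at 504 CPM in dendritic cell-like cells.

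Like Sp7, the other genes of the set were not held mainly by osteoblast-like cells. Of the Spp1 UMIs, 65.8% lay in a cluster of 2374 cells led by Mt3, Spp1 and Apoe. It raised 5 of 9 osteoclast markers and 6 of 8 monocyte markers. It is called the macrophage/osteoclast cluster here, although only 136 of its cells were osteoclast-like. Spp1 was at 4192 CPM (4172 to 4213) in that cluster, 2635 CPM in osteoblast-like cells and 15.7 CPM in B-lineage-like cells. Of the Runx2 UMIs, 32.2% lay in dendritic cell-like cells, a Siglech-led cluster of 2084 cells at 504 CPM (498 to 511). Osteoblast-like cells were at 476 CPM (465 to 488) and held 10.0% of the Runx2 UMIs. Of the Alpl UMIs, 23.5% lay in osteoblast-like and 25.2% in other mesenchymal-like cells. Neutrophil-like cells held 17.9% of them, and a cluster of 2505 cells led by the defensin genes RatNP-3b and Defa11 held 15.4%. A pseudogene of Alpl, Alpl-ps1, is listed in the files and had 0 UMIs in all kept cells. Whether the Alpl values hold reads of both copies cannot be told here.

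**Figure D2:**
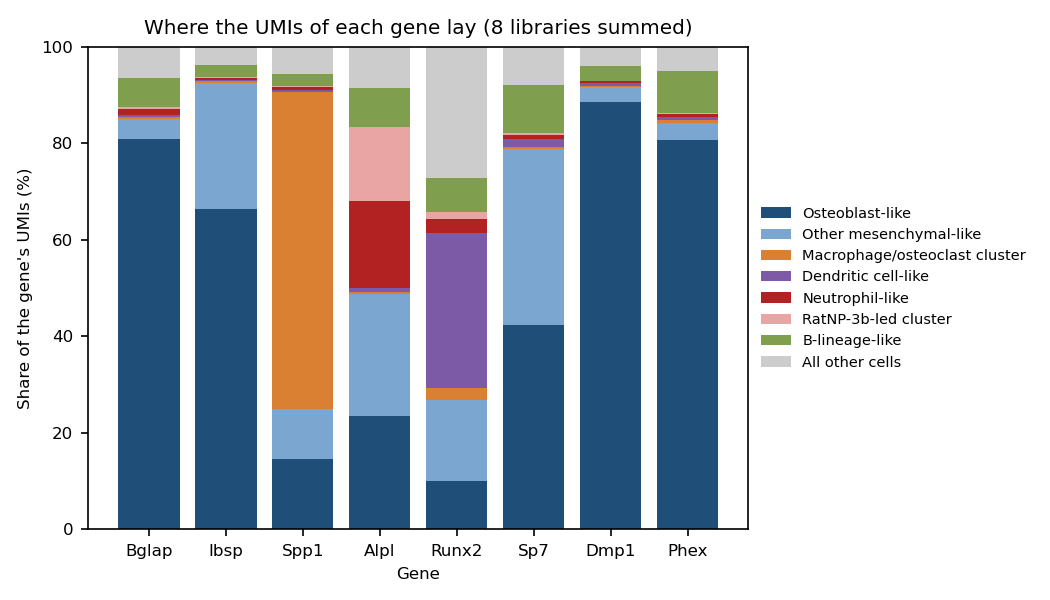
Stacked bars of the share of each gene's UMIs (vertical axis, percent) by cell group, over the 8 libraries summed. Osteoblast-like cells, 0.357% of all cells, make up 80.8% of the Bglap bar and 10.0% of the Runx2 bar, and the macrophage/osteoclast cluster makes up 65.8% of the Spp1 bar.

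Shares of cells with a UMI were read against B-lineage-like cells and after thinning each cell to 2000 UMIs, which left out 6718 B-lineage-like cells and 1 osteoblast-like cell. A Bglap UMI was found in 96.2% of osteoblast-like and 31.0% of B-lineage-like cells, and in 80.9% and 16.3% after thinning. The share in B-lineage-like cells was read as background. For Ibsp the thinned shares were 96.9% (exact binomial interval 94.7% to 98.4%) and 1.87%. Runx2 was found in 51.0% of thinned dendritic cell-like, 56.0% of osteoblast-like and 2.11% of B-lineage-like cells. Sp7 was found in 76.1% of osteoblast-like cells before and 15.3% after thinning, and Phex in 67.3% and 28.0%. Dmp1 was found in 36.5% before and 14.0% after thinning. Without thinning, at least 5 of the 8 genes had a UMI in 379 of the 394 osteoblast-like cells, and all 8 had one in 66 cells. At least 5 also had a UMI in 432 of 796 other mesenchymal-like cells and in 29 of 64331 B-lineage-like cells. All 8 had one in 6 and 0 cells of these populations. Per 10000 UMIs of a cell, Bglap took a median of 206 UMIs in osteoblast-like cells, with 0.720 at the 10th and 972 at the 90th percentile. Osteoblast-like cells were thus far from uniform in Bglap.

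The osteoblast-like sub-clusters differed in which of the genes they carried. Bglap was at 48704 CPM in sub-cluster 0, 22337 CPM in the Mepe-led sub-cluster 6 and 838 CPM in sub-cluster 5. Ibsp was at 6507, 7006 and 8997 CPM in the same order, a narrower range. Alpl ran the other way, with 1121 CPM in sub-cluster 5, 545 CPM in sub-cluster 0 and 96.3 CPM in sub-cluster 6. Dmp1 was at 2814 CPM in sub-cluster 6, 87.6 CPM in sub-cluster 0 and 11.6 CPM in sub-cluster 5. Phex was at 2104, 168 and 9.87 CPM. The 32 cells of sub-cluster 6 held 65.0% of all Dmp1 UMIs and 42.1% of all Phex UMIs. These sub-clusters are descriptions of the cells in 8 libraries, and no test of a difference between clusters was made.

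Other mesenchymal-like cells carried parts of the set. Cxcl12-abundant stromal-like cells (77 cells) had Bglap at 9057 CPM, Spp1 at 5542 CPM, Ibsp at 4196 CPM and Runx2 at 875 CPM. Chondrocyte-like cells (104 cells, led by Col2a1 and Hapln1) had Runx2 at 604 CPM, Alpl at 547 CPM and Ibsp at 1358 CPM with Bglap at 84.0 CPM. A sub-cluster of 370 cells led by Actg2 and F13a1, 295 of them from TOE 2d 24h, had Ibsp at 1295 CPM, Sp7 at 36.3 CPM and Bglap at 126 CPM. It raised 4 of 8 pericyte and smooth muscle markers and is called here by its leading genes. Fibroblast-like cells (190 cells) had Runx2 at 141 CPM, and 125 of them were from TO 4d 4h. In that library fibroblast-like cells had Bglap at 9.99 CPM on 44 UMIs and Alpl at 2.72 CPM on 12 UMIs, against 4.82 and 8.26 CPM in B-lineage-like cells. No Dmp1 UMI was found among the fibroblast-like cells, where 3 counts would have been 0.450 CPM.

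Outside the mesenchymal-like class, Runx2 was at 225 CPM in T/NK cell-like, 193 CPM in mast cell/basophil-like, 68.2 CPM in granulocyte-monocyte progenitor-like and 54.0 CPM in monocyte-like cells. Among the 8 libraries it ran from 369 to 753 CPM in dendritic cell-like cells and from 8.83 to 14.6 CPM in B-lineage-like cells, with no overlap. Within the Mt3-led cluster, Spp1 was uneven. A sub-cluster of 417 cells led by F13a1, which raised 3 of 8 monocyte markers, had 11259 CPM. The 136 osteoclast-like cells, which raised 9 of 9 osteoclast markers, had 79.6 CPM. Spp1 in the whole cluster ran from 609 CPM in TO 4d 24h to 5274 CPM in TO 2d 0h.

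Across 38 cell groups (clusters and mesenchymal-like sub-clusters), each gene was set beside the genes outside the set with at least 500 UMIs by Pearson's r of log2(CPM + 1). These groups share libraries and depth, and the r values describe the groups only. Of these, Dmp1 was most like Ccdc194 (r = 0.95), Mepe (0.94), a phosphoprotein of osteocytes, and Bmp8a (0.93). Phex was most like Ptprz1 (0.95), Ccdc194 (0.94) and Bmp8a (0.94). For Ibsp they were Slc8a3 (0.97) and Entpd3 (0.96), and for Sp7 Entpd3 (0.97), Slc8a3 (0.97) and Dpp6 (0.97). Bglap was most like the collagen gene Col11a2 (0.89), the osteoblast membrane gene Ifitm5 (0.89) and Car3 (0.89). For Spp1 the nearest gene was Ctsk (0.88), a protease of osteoclasts, followed by Slc35e4 (0.85) and Pdgfc (0.84). For Alpl they were Col25a1, Insc and Slc6a15 (0.87, 0.86 and 0.86), and for Runx2 Hoxa5 and Kcnk6 (both 0.84). Within the set, Dmp1 and Phex had an r of 0.96 with each other, and r ran from 0.54 for Runx2 with Dmp1 to 0.97 for Ibsp with Sp7.

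The bases before the start of Bglap and Runx2 are shown because Runx2 is known to act on the Bglap promoter and the levels of both genes by hour of collection are described next. The sequences are from RefSeq on the GRCr8 assembly, another build than the one named for the counts, and 6 of the 8 genes had an entry. Each run is the 250 bases before the annotated start, 5′ to 3′ on the strand of the gene. Capitals mark AACCACA, the core letters bound by Runx proteins, which were searched on both strands together with the reverse complement TGTGGTT. Bglap lies at chr2:176137319-176137568 on the minus strand and Runx2 at chr9:23664808-23665057 on the plus strand.
Bglap: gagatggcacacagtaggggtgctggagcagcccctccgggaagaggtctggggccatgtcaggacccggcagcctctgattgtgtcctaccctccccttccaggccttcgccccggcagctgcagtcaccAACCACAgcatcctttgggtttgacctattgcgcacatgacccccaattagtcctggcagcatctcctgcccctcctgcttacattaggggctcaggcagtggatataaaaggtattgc
Runx2: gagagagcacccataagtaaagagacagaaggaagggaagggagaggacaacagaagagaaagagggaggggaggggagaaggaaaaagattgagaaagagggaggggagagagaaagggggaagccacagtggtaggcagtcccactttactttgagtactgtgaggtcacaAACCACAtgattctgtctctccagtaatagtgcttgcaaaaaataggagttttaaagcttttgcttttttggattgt
The letters began 119 bases before the start in Bglap and 77 bases before it in Runx2. They were not found in the windows of Alpl, Spp1, Ibsp, Dmp1 or a second Runx2 start. Of 33469 promoter windows of this length, 4.59% held the letters, so 2 of 7 windows is a description of these genes and not of binding.

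Bglap differed between the 4 libraries taken at 4 h and the other 4. Over all kept cells it was at 218 CPM in TO 2d 4h, 141 CPM in TO 4d 4h, 233 CPM in TOE 2d 4h and 272 CPM in TOE 4d 4h. It was at 671 CPM in TO 2d 0h, 1875 CPM in TO 4d 24h, 941 CPM in TOE 2d 24h and 1281 CPM in TOE 4d 24h. The 2 sets of libraries did not overlap, and the mean log2 CPM at 4 h differed by -2.40 from that of the others (-2.48 without TOE 2d 24h). Among 22000 genes with at least 50 UMIs, 7.88% had every 4 h library below every other library. The contrast was named with the values of Bglap known, so it is given with no test. In whole libraries, fewer osteoblast-like cells and less Bglap RNA per cell cannot be told apart.

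In osteoblast-like cells the 2 sets overlapped. Bglap was at 27823, 42652, 47047 and 30771 CPM in TO 2d 4h, TO 4d 4h, TOE 2d 4h and TOE 4d 4h. It was at 33365, 63009, 18284 and 96644 CPM in TO 2d 0h, TO 4d 24h, TOE 2d 24h and TOE 4d 24h. TOE 2d 24h was below all 4 h libraries and TOE 4d 24h above all others, and the mean log2 CPM at 4 h differed by -0.28. It was 0.10 without TOE 4d 24h and -0.70 without TOE 2d 24h, so 1 library turned its direction. Of the 119 osteoblast-like cells of TOE 2d 24h, 36 were in sub-cluster 5. In sub-cluster 0 alone, the 4 h libraries ran from 31076 to 49961 CPM and the others from 33520 to 96644 CPM. There TOE 2d 24h was thus not below all 4 h libraries. In the mesenchymal-like class, which differs in its makeup between libraries, the ranges were 2887 to 25410 CPM and 4842 to 58409 CPM. The mean log2 difference was -1.28. With 1 library left out it ran from -2.01 (without TOE 2d 24h) to -0.74.

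The separation was larger in cells that should lack the gene. B-lineage-like cells had 4.82 to 14.2 CPM in the 4 h libraries and 116 to 243 CPM in the others, a mean log2 difference of -4.09. The clusters of this class held different numbers of cells in the 2 sets. Libraries were clustered together with no integration, so kinds of cell and differences between libraries cannot be told apart in these numbers. The H1f2-led cluster had 87 to 138 cells in each 4 h library and 3889, 3645, 4322 and 157 in TO 2d 0h, TO 4d 24h, TOE 2d 24h and TOE 4d 24h, while the Mybpc2-led cluster had 2494 to 3364 cells at 4 h and 49 to 348 in the others. In TOE 2d 4h and TOE 4d 24h the Ms4a6b-led cluster held the most cells of the class, 2664 and 3739. Within the Mybpc2-led cluster alone Bglap was at 5.17 to 17.0 CPM and 113 to 252 CPM. In the Dntt-led cluster, which had 190 to 566 cells in every library, it was at 4.05 to 11.9 CPM and 97.1 to 206 CPM. Neutrophil-like cells had 10.7 to 20.4 CPM and 105 to 305 CPM, and T/NK cell-like cells 6.80 to 20.3 CPM and 113 to 196 CPM. In B-lineage-like cells 10.2% of 19215 genes had every 4 h library below every other. Col1a1, a type I collagen gene made by osteoblasts and fibroblasts, was at 38.2 to 113 CPM and 133 to 439 CPM in B-lineage-like cells, and its mean log2 difference was -1.95. Ibsp in B-lineage-like cells overlapped between the sets, at 0.680 to 4.60 CPM and 4.47 to 34.8 CPM. Per 100 Col1a1 UMIs, B-lineage-like cells of the 4 h libraries had 8.16 to 35.2 Bglap UMIs and osteoblast-like cells 22.7 to 31.4. In the other libraries the same figures were 48.3 to 117 in B-lineage-like and 27.1 to 79.1 in osteoblast-like cells. The Bglap level of B-lineage-like cells was 0.0113% to 0.0462% of that of osteoblast-like cells at 4 h and 0.161% to 1.16% in the other libraries. What part of the whole-library difference lies in RNA free of its cell of origin was not tested.

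**Figure D3:**
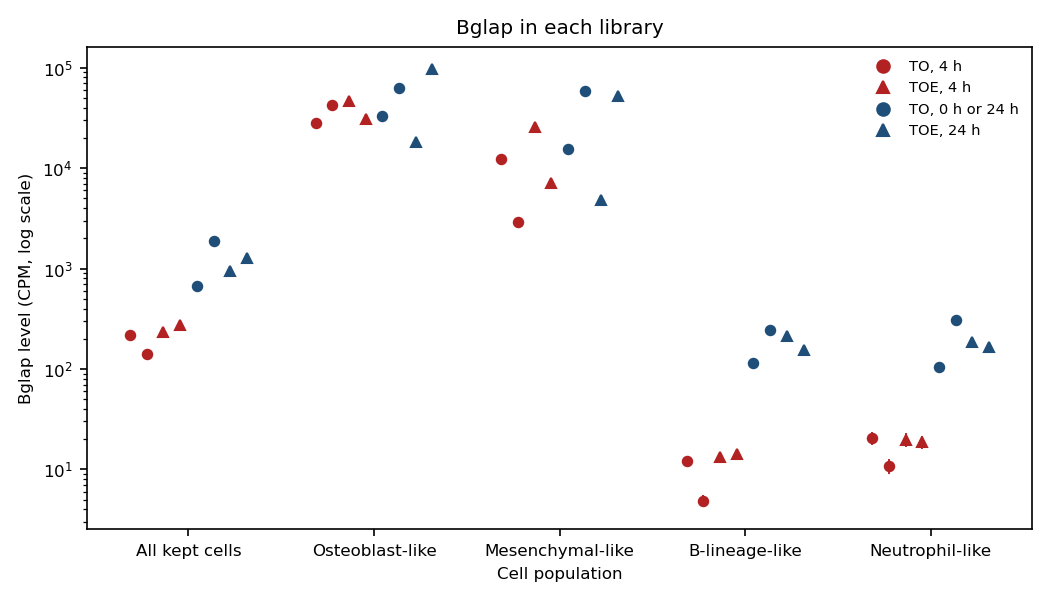
Bglap level (CPM, log scale) of each of the 8 libraries in 5 cell populations, with 95% Poisson intervals that are mostly smaller than the symbols. Red symbols are the 4 h libraries and blue symbols the 0 h and 24 h libraries, with circles for TO and triangles for TOE. The colours separate in all kept cells, B-lineage-like and neutrophil-like cells, and overlap in osteoblast-like and mesenchymal-like cells.

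The low-UMI cluster led by Npy and Pla2g2a and an unnamed cluster of TO 2d 4h also carried Bglap. The low-UMI cluster was at 3189, 13.1, 384 and 19.6 CPM in TO 2d 4h, TO 4d 4h, TOE 2d 4h and TOE 4d 4h, and at 2077 to 14866 CPM in the others. A cluster of 2081 cells led by Sync and Prtn3, 1987 of them in TO 2d 4h, was at 1447 CPM in that library. In TO 2d 4h, 30.6% of Bglap UMIs lay outside the mesenchymal-like class, against 4.14% to 19.1% in the other 7 libraries.

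The other 7 genes were tested for hour of collection with edgeR, in which libraries of different arm and day stand in as replicates of an hour. The p-values therefore measure the spread between these libraries. The genes were chosen with earlier results of these data known. Several B-lineage-like clusters differed in cell number between the same 2 sets, as given above. The hour thus cannot be told apart from any other difference between the 2 sets of libraries. In osteoblast-like cells 270 of 8986 genes passed an adjusted p of 0.05, 3% of all, with 97 higher (1.08%) and 173 lower (1.93%) at 4 h. That count was 84 without TO 2d 0h, 65 without TO 2d 4h, 57 without TO 4d 4h, 73 without TO 4d 24h, 176 without TOE 2d 24h and 411 without TOE 4d 24h. Of the 7 genes, Phex passed. Phex was at 538, 267, 435 and 737 CPM in TO 2d 4h, TO 4d 4h, TOE 2d 4h and TOE 4d 4h, and at 254, 164, 206 and 196 CPM in TO 2d 0h, TO 4d 24h, TOE 2d 24h and TOE 4d 24h. The sets did not overlap, as for 5.68% of 10705 genes that were higher at 4 h in this way. The edgeR log2 fold change was 1.19 (SE 0.26, adjusted p = 0.0338). Phex did not pass with 1 library left out in 6 of 8 cases, with edgeR adjusted p values of 0.0719 without TO 2d 0h, 0.152 without TO 2d 4h, 0.127 without TO 4d 24h, 0.0897 without TOE 2d 24h, 0.0710 without TOE 4d 4h and 0.0502 without TOE 4d 24h. In sub-cluster 0 alone the log2 fold change of Phex was 0.04 (edgeR adjusted p = 0.939), with 152 to 267 CPM at 4 h and 133 to 198 CPM in the others. The Mepe-led sub-cluster 6, in which Phex was at 584 to 3166 CPM by library, made up 3 of 24, 0 of 16, 2 of 28 and 10 of 44 osteoblast-like cells at 4 h and 5 of 52, 1 of 87, 11 of 119 and 0 of 24 in the others, in the order given above.

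Runx2 in osteoblast-like cells did not overlap between the sets either. It was at 835 CPM in TO 2d 4h, 1249 CPM in TO 4d 4h, 761 CPM in TOE 2d 4h and 664 CPM in TOE 4d 4h. In the other libraries (TO 2d 0h, TO 4d 24h, TOE 2d 24h and TOE 4d 24h) it was at 348, 394, 396 and 554 CPM. The edgeR log2 fold change was 1.00 (SE 0.25) with an adjusted p of 0.0528, so it did not pass over all 8986 genes. It passed without TOE 4d 4h (1.27, edgeR adjusted p = 0.0129) and without TOE 4d 24h (1.20, edgeR adjusted p = 0.0231). In sub-cluster 0 alone, a setting that was not planned, the log2 fold change of Runx2 was 1.08 and passed (edgeR adjusted p = 0.0172). There 355 of 8112 genes passed. Runx2 was at 809 to 1249 CPM at 4 h and 364 to 554 CPM in the others. This higher level was not seen over all kept cells, where Runx2 was at 55.8 to 71.5 CPM at 4 h and 59.7 to 103 CPM in the others. Neutrophil-like cells differed the other way, at 13.5 to 16.8 CPM and 24.5 to 38.8 CPM, with no overlap, as for 5.17% of 13436 genes that were lower at 4 h in this way. A higher Runx2 level at 4 h was not particular to osteoblast-like cells. The mean log2 CPM differed by 0.87 in the macrophage/osteoclast cluster, 0.51 in T/NK cell-like and 0.43 in monocyte-like cells. It differed by -0.31 in B-lineage-like cells. The sets overlapped in each of these populations.

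For the remaining genes the edgeR log2 fold change at 4 h in osteoblast-like cells was -0.17 for Ibsp, -0.20 for Spp1, -0.15 for Alpl, 0.30 for Sp7 and 1.06 for Dmp1. Their adjusted p values ran from 0.358 for Dmp1 to 0.753 for Spp1. Dmp1 was the gene with the widest spread, from 36.0 CPM in TO 4d 24h to 790 CPM in TOE 4d 4h. Sp7 ran from 51.8 to 98.7 CPM, Alpl from 399 to 815 CPM, Spp1 from 1772 to 4416 CPM and Ibsp from 4099 to 10131 CPM. In whole libraries 371 of 21873 genes passed, 1.7% of all, and none of the 7 genes was among them. That count was 3 without any 1 of TO 2d 0h, TO 4d 4h, TO 4d 24h, TOE 2d 4h and TOE 4d 4h. It was 7 without TO 2d 4h, 609 without TOE 2d 24h and 1758 without TOE 4d 24h. Ibsp differed by -2.04 (SE 0.64, edgeR adjusted p = 0.131), with 25.0 to 95.7 CPM at 4 h and 78.8 to 511 CPM in the others. Ibsp passed without TOE 4d 24h (-2.48, edgeR adjusted p = 0.0466) and by DESeq2 (-2.04, DESeq2 adjusted p = 0.00703). With 1 library left out it ran from -2.83 without TOE 4d 4h to -1.53 without TOE 2d 24h. In the mesenchymal-like class 4 of 13254 genes passed, 0.0302% of all, and the 7 genes had adjusted p values of 0.354 or more.

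**Figure D4:**
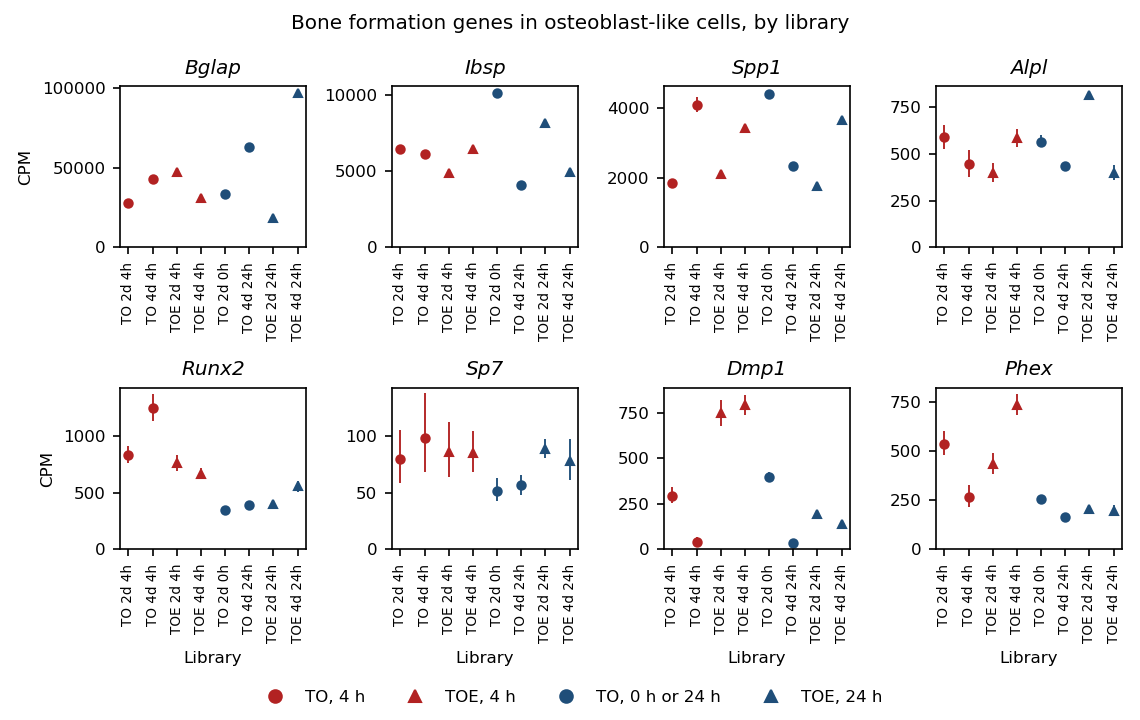
Level (CPM, linear axis from 0) of each gene in osteoblast-like cells of each library, with 95% Poisson intervals. Red symbols are the 4 h libraries and blue symbols the others, with circles for TO and triangles for TOE. The 4 h libraries lie above the others for Runx2 and Phex, and the colours overlap for the other 6 genes.

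Other genes of bone formation were described from lists that were chosen with earlier results of these data known. Calls at 4 h within a list are thus a description of it and no test of the list. Of 16 other bone matrix and mineral genes, 15 were fitted in osteoblast-like cells and 1 passed, beside 3% of all genes there. Their median log2 fold change at 4 h was 0.15 against 0.03 over all genes. Phospho1, a phosphatase that starts mineral in matrix vesicles, fell by 1.06 (SE 0.23, edgeR adjusted p = 0.0307). It was at 40.7 to 86.4 CPM at 4 h and 95.4 to 182 CPM in the others. The call was lost with library totals only (edgeR adjusted p = 0.0588) and in sub-cluster 0 alone (edgeR adjusted p = 0.0580). The latter leaves out sub-cluster 5, of which Phospho1 was a leading gene and TOE 2d 24h held 36 of 40 cells. In whole libraries Omd, a small proteoglycan of bone, fell by 2.52 (SE 0.34, edgeR adjusted p = 0.0268), at 0.591 to 1.38 CPM and 3.68 to 5.95 CPM. It was the only 1 of the 16 genes to pass there, beside 1.7% of all genes. From the list of other osteoblast transcription regulators, the homeobox factor Dlx3 rose by 1.11 in osteoblast-like cells (SE 0.24, edgeR adjusted p = 0.0346), from 16.6 to 29.0 CPM in the others to 37.8 to 65.1 CPM at 4 h. With 1 library left out, the calls of Phospho1 and Omd were each lost in 6 of 8 cases and that of Dlx3 in 7 of 8, in the same direction throughout. The lost calls had edgeR adjusted p values of 0.0511 to 0.119 for Phospho1, 0.0787 to 0.148 for Omd and 0.0511 to 0.121 for Dlx3. The calls held without TO 2d 4h or TOE 4d 24h for Phospho1, without TOE 2d 24h or TOE 4d 24h for Omd and without TOE 4d 24h for Dlx3.

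None of the 12 fitted genes for receptors and osteocyte signals passed in osteoblast-like cells, and their median was 0.27. In the mesenchymal-like class the largest values of that list were 2.47 for Bmpr1b, a BMP receptor (adjusted p = 0.361), -1.77 for Dkk1, a Wnt inhibitor (0.161), and 0.75 for Fgf23, the phosphate hormone (0.726). Of 14 clock genes, 10 were fitted in osteoblast-like cells and 4 fell, with a median of -0.51, beside the 1.93% of all genes that fell there. The clock genes too were a list chosen with earlier results of these data known, so these calls describe the list. In the mesenchymal-like class and in whole libraries edgeR called 0 of 13 fitted clock genes, with medians of 0.17 and 0.04, and 5 and 2 of them had an unadjusted p under 0.05, beside 2468 of 13254 and 4850 of 21873 genes. Nr1d1, a clock repressor, fell by 3.41 (SE 0.48, edgeR adjusted p = 0.00439), at 1.90 to 8.57 CPM at 4 h and 30.7 to 77.9 CPM in the others. The 4 h levels rested on 1 to 5 UMIs per library and are thus near the floor. Nr1d2 fell by 1.05 (adjusted p = 0.0459), Per1 by 1.38 (0.0292) and Per2 by 1.40 (0.0207). At 4 h these 3 genes had 6 to 18, 5 to 9 and 4 to 10 UMIs per library. Nr1d1 passed with each library left out in turn, whereas the calls of Per1 and Per2 held without TOE 2d 4h or TOE 4d 24h and were lost in the other 6 cases. That of Nr1d2 was lost in all 8. The lost calls had edgeR adjusted p values of 0.0540 to 0.149 for Per1, 0.0513 to 0.0948 for Per2 and 0.0596 to 0.170 for Nr1d2. The TO libraries had no session. Within TO, Nr1d1 was at 5.08 and 2.90 CPM in TO 2d 4h and TO 4d 4h, on 3 UMIs and 1 UMI. In TO 2d 0h and TO 4d 24h it was at 77.9 and 38.2 CPM. The 0 h and 24 h libraries lie a whole day apart and the clock times are not given in the sources used here. Hour of collection and time of day thus cannot be told apart. Of 9 osteoclast genes, 3 were fitted in the mesenchymal-like class and none passed, at -1.31 for Acp5, -0.92 for Ctsk and 0.63 for Itgb3.

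TOE was compared with TO where both arms had a library analysed here, which was the case 4 h after the day 2 session and both 4 h and 24 h after the day 4 session. The edgeR fit of the arm took in all 8 libraries, also TO 2d 0h and TOE 2d 24h, which had no partner. It called 0 of 8986 genes in osteoblast-like cells, 0 of 13254 in the mesenchymal-like class and 0 of 21873 in whole libraries. At an unadjusted p under 0.05 there were 500, 286 and 565 genes, and DESeq2 called 10, 2 and 0. The smallest unadjusted p among the 8 genes was that of Alpl in whole libraries, with a log2 fold change of 1.20 (SE 0.34, edgeR adjusted p = 0.977). The level of Alpl in whole libraries was highest in TOE 2d 24h, at 88.3 CPM. For the day, edgeR called 0 genes in each population, with 387, 281 and 279 at an unadjusted p under 0.05 and 4, 1 and 4 by DESeq2. In osteoblast-like cells Dmp1 had a ratio of TOE over TO of 2.54 (2.13 to 3.05) for the day 2 pair. For the day 4 pairs the ratio was 20.9 (12.2 to 39.5) after 4 h and 3.80 (2.91 to 4.96) after 24 h, with exact conditional intervals for counting error. The TO levels were 295, 37.8 and 36.0 CPM and the TOE levels 749, 790 and 137 CPM. At 4d 4h the 20.9-fold ratio rests on 13 UMIs in 16 cells of TO, and the edgeR log2 fold change over all 8 libraries was 1.46 (SE 0.66, adjusted p = 0.875). In that pair the Mepe-led sub-cluster 6, which held most Dmp1 UMIs, made up 0 of 16 osteoblast-like cells in TO and 10 of 44 in TOE. In sub-cluster 0 alone the Dmp1 ratio of that pair turned to 0.347 (0.131 to 0.877), on 9 UMIs in TOE and 13 in TO. In the other pairs it was 27.2 (13.5 to 63.8) on day 2, on 8 UMIs in TO, and 3.81 (2.92 to 4.99) on day 4. Sp7 had ratios of 1.08, 0.865 and 1.38, and the first 2 intervals included 1. Past 1.5-fold either way were 27.2%, 26.8% and 25.5% of genes with at least 50 UMIs in these 3 pairs, so such ratios in single pairs were common. An interval above 1 in 1 pair and below 1 in another was found for 6 of the 8 genes, each with at least 500 UMIs in every pair. It was found for 17.2% of 3032 genes with at least 50 UMIs in every pair and for 70.7% of the 208 genes with at least 500, so it was common at the depth of these 6.

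In neutrophil-like cells Alpl was higher in the TOE than in the TO library of each pair. It was at 44.1 CPM in TO 2d 4h, 48.1 CPM in TO 4d 4h, 258 CPM in TOE 2d 4h and 238 CPM in TOE 4d 4h. It was at 33.3 CPM in TO 2d 0h, 15.7 CPM in TO 4d 24h, 38.9 CPM in TOE 2d 24h and 26.7 CPM in TOE 4d 24h. The 2 TOE libraries taken at 4 h thus stood above the other 6, and all 4 libraries taken at 4 h above the other 4, as for 16.6% of 13436 genes in these cells. In the 2d 4h pair the ratio of TOE over TO was 5.85 (5.27 to 6.51). In the pairs of day 4 it was 4.95 (4.53 to 5.43) after 4 h and 1.71 (1.41 to 2.08) after 24 h. Above 3-fold in neutrophil-like cells were 2.09%, 0.28% and 3.19% of 9905, 10373 and 10544 genes in these pairs. The ratio of 1.71 lies below that mark. The share of genes higher in TOE in every pair, or highest in the 2 TOE libraries taken at 4 h, is not given here. In the Ngp-led cluster of 6149 cells alone, the ratios were 5.64, 4.67 and 2.06. In the unnamed RatNP-3b-led cluster Alpl was at 93.2 and 123 CPM in TO and 245 and 310 CPM in TOE at 2d 4h and 4d 4h. In the Hcar2-led neutrophil-like cluster it was at 8.49 to 40.6 CPM. B-lineage-like cells had ratios of 0.506 (0.436 to 0.587), 1.04 and 1.08, and ranged from 4.75 to 9.47 CPM. Alpl in osteoblast-like cells had ratios of 0.678, 1.31 and 0.920. Each pair is 1 library against 1, and the difference has no replicate check.

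**Figure D5:**
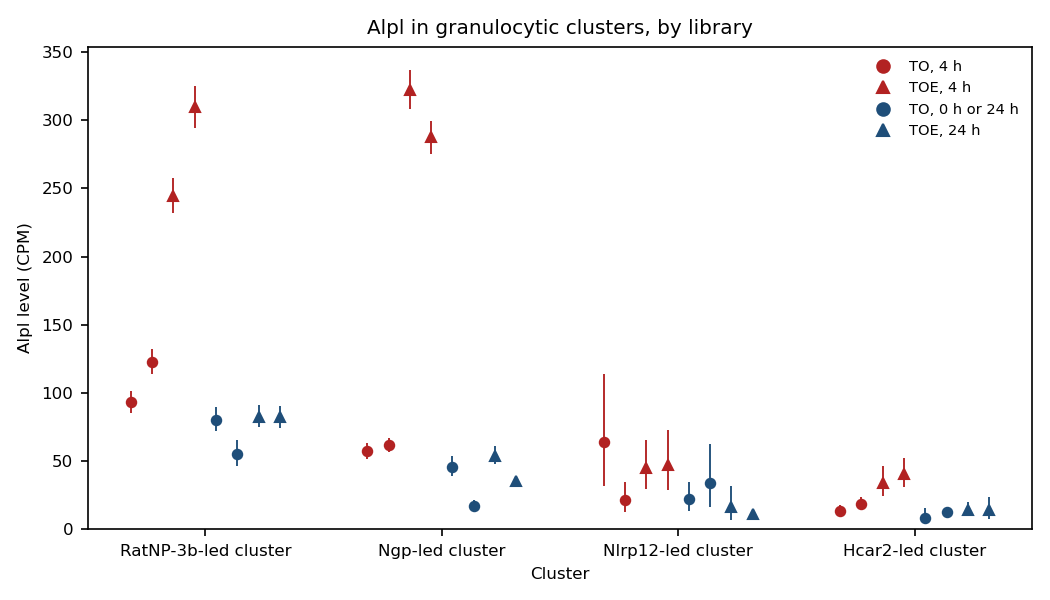
Alpl level (CPM, linear axis from 0) in 4 granulocytic clusters, by library, with 95% Poisson intervals. Red triangles (TOE, 4 h) stand at 322 and 287 CPM in the Ngp-led cluster, where the other 6 libraries lie between 17.1 and 61.5 CPM.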

How the data were processed

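Droplet libraries (10x Genomics Chromium, 3′ gene expression) were made from the tibial osteotomy site. The deposited matrices hold raw UMI counts per gene and barcode and, per the file headers, come from Cell Ranger 9.0.0. The submitters' processing notes also name Seurat and R 4.0.3 and the builds mRatBN7.2 and GRCh38, with no annotation version. These matrices hold the barcodes that Cell Ranger called as cells. Cell types were named here from marker genes.

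Barcodes were kept with at least 200 genes, at most 20% mitochondrial UMIs and a Scrublet score of at most 0.25 (8% doublets expected; 2.27% to 4.24% of barcodes removed per library). After scaling to 10000 UMIs, 2000 variable genes without the 8 bone formation genes, 30 principal components, 15 neighbours and Leiden resolution 1 gave 30 clusters (scanpy 1.11.5, igraph 0.11.9, scikit-learn 1.9.0). Mesenchymal-like cells were sub-clustered with 20 components at resolution 0.5. No integration of the libraries was made at either step, so clusters and sub-clusters may follow libraries as well as kinds of cell. A name required at least 3 raised markers of a class, and 7.85% of cells stayed unnamed.

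UMIs were summed per library and population and fitted with edgeR 4.0.16 in R 4.3.3 (TMM, filterByExpr, quasi-likelihood test, terms hour, arm and day, Benjamini-Hochberg over all genes tested). DESeq2 1.42.0 was an alternative. The fit was tested on simulated data. Pairs of single libraries were given as ratios with exact conditional intervals at 95%. Intervals came from scipy 1.17.1 and sums from pandas 2.3.3 and numpy 2.4.6 (python 3.11.15), and plots from matplotlib 3.10.9. UMIs count captured molecules, so intervals cover counting error only.

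The bone formation genes, the gene lists and the Bglap contrast were chosen with earlier results of these data known. Genes were named if they were among the 8, if they were 1 of the 3 most correlated with one of them, or if they passed an adjusted p of 0.05 in a list. In a list with none, up to 3 with the largest absolute log2 fold change in the mesenchymal-like class were named. Some results that this rule names are not reported here.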

Additional observations from a re-analysis of the deposited data

Results flagged for a closer look

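In osteoblast-like cells 6 of the 8 genes had a ratio of TOE over TO whose interval lay below 1 in at least 1 pair of libraries and above 1 in another, as did 70.7% of the 208 genes with at least 500 UMIs in every pair, a depth these 6 had. The difference between pairs was not tested, each value compares 1 library with 1 library, and the intervals cover counting error only. Bglap had a ratio of 1.69 in the 2d 4h pair and, for day 4, of 0.721 after 4 h and 1.53 after 24 h. For Ibsp it was 0.762, 1.05 and 1.20 in the same order, and for Spp1 1.14, 0.840 and 1.56. Alpl had ratios of 0.678, 1.31 and 0.920, Runx2 0.912, 0.532 and 1.41, and Phex 0.808, 2.76 and 1.19. In sub-cluster 0 alone, without the Mepe-led sub-cluster that held 10 of 44 cells in TOE and 0 of 16 in TO at 4d 4h, the Phex ratio of that pair turned to 0.632 (0.476 to 0.840). Osteoblast-like cells numbered 16 to 119 per library.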

How the results depend on the processing

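The counts of genes past the threshold moved with the processing, and so did some values of the genes named. For the hour in whole libraries edgeR called 639 with library totals only, 1564 with hour as the only term and 3 to 1758 with 1 library left out, and DESeq2 called 2369. In the mesenchymal-like class the hour gave 697 by DESeq2, 184 with no low-count filter, 449 with hour as the only term, 10 with the stricter cell filter (500 genes or more, mitochondrial share up to 10%), 13 with doublets kept, 12 with the 8 genes in the clustering, 15 with another seed and 0 to 6 with 1 library left out. In osteoblast-like cells it gave 724 with no low-count filter, 436 with doublets kept, 462 with the 8 genes in the clustering, 438 at sub-clustering resolution 1 and 57 to 411 with 1 library left out. The cause of these moves was not tested. For the arm, osteoblast-like cells gave 1 with library totals only, 10 by DESeq2, 94 with no low-count filter, 3 with the 8 genes in the clustering, 2 at resolution 1 and 0 to 2 with 1 library left out, and the mesenchymal-like class gave 2 by DESeq2. With the pair of libraries as a block in the 3 matched pairs, the replicate block gave 1 gene in osteoblast-like cells and 0 in the other populations, and no member changed its call (Alpl in whole libraries at 0.82). For the day DESeq2 called 4 in whole libraries, 1 in the mesenchymal-like class and 4 in osteoblast-like cells. In osteoblast-like cells the day gave 66 with no low-count filter, 1 each with the stricter filter, doublets kept, the 8 genes in the clustering, another seed and resolution 1, and 0 to 2 with 1 library left out, and the mesenchymal-like class gave 0 to 1. Library totals only moved the median of all genes by the hour in the mesenchymal-like class to 0.22, and by the day to -0.13 there and -0.16 in osteoblast-like cells.

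Bglap at 4 h against the others kept its direction in whole libraries (-2.64 to -2.15 with 1 library left out) and in the mesenchymal-like class (-2.01 to -0.74). In osteoblast-like cells it ran from -0.70 to 0.10 and reversed to 0.10 without TOE 4d 24h. The osteoblast-like share was 0.285% to 0.388% of all cells and 28.2% to 37.9% of mesenchymal-like cells with 1 library left out. Phex stayed past the threshold under 9 alternatives that kept all 8 libraries and lost it in the largest sub-cluster alone, a setting that was not planned. Runx2 came past it under 10, that setting among them. The small number of osteoblast-like cells per library limits these values, and with 1 library per condition no replicate error could be given.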
